A study of Mus musculus with 32 samples.

Results

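Hepatocytes of the liver lobule do different work depending on where they lie between the portal vein and the central vein. Pericentral hepatocytes, next to the central vein, capture ammonia as glutamine and are maintained by Wnt signals from the central vein endothelium, whereas periportal hepatocytes, next to the incoming blood, break down amino acids and make glucose and urea. The zonation marker genes described here were 10 genes found by their symbol among the 21880 genes of the deposited table. They comprised 6 pericentral genes (*Glul*, *Oat*, *Lect2*, *Slc1a2*, *Rgn* and *Gulo*) and 4 periportal genes (*Sds*, *Hal*, *Gls2* and *Hsd17b13*), and each symbol matched 1 row.

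The table was made from poly(A) RNA of whole livers in 8 groups of 4 libraries, 32 in all, which were WT mice and the knockouts L-*Dnm1l*–KO, TKO and DKO, each at the ages of 2M and 6M (months). L-*Dnm1l*–KO mice lack the mitochondrial fission gene *Dnm1l*, DKO mice lack the fusion genes *Mfn1* and *Mfn2*, and TKO mice lack all of these genes. Each knockout was made by crossing floxed mice with albumin-Cre mice, so that the deletion was driven by the albumin promoter, which is active in hepatocytes. The labels name 1 WT group for each age, from the *Dnm1l* line, and it served as the control for every genotype.

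For each gene the table gives 1 mean normalized count, taken over all libraries. The remaining values are the authors' own fold changes and *P* values against WT mice, which were not used. Values of single libraries were not analyzed here, so no level by genotype or age, no error and no test is given for any gene, and the depth of each library is unknown. Each value below is therefore a mean over all genotypes and ages, and neighbors in an order of levels cannot be said to differ. In whole liver, fewer cells of a zone and less RNA per cell cannot be told apart.

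The levels of the zonation genes were read together with the genes annotated on the opposite strand at the same place, because the NEBNext directional kit kept the strand of the RNA and the strand setting of the read counting is not named in the methods. Reads of this kit run opposite to the RNA, and a count made with HTSeq's default setting, which takes reads in the direction of the gene, would hold reads of the opposite strand in place of the gene's own. Which setting was used was not tested, so every mean normalized count here, with its rank and order, is the value listed for a gene and not the level of its mRNA. Exons of 4 of the 10 zonation genes overlapped exons of a gene on the opposite strand in GENCODE M21 on GRCm38, against 31.9% of the 14527 coding genes in the table. In each of these 4 genes the opposite-strand gene had the higher value per kb of exon, as did the highest opposite-strand gene for 68.2% of the 4334 coding genes with one in the table, and nothing particular to the zonation genes is read from this count. The overlaps of *Sds* and *Slc1a2* with predicted antisense genes lay in coding exons, which are shown here because their bases belong to both genes. The sequences are those of GENCODE M21 transcripts on GRCm38, 5′ to 3′ on the plus strand, and capitals mark the bases that an exon of the antisense gene covers from the other strand.

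The *Sds* exons lie at chr5:120480576-120480715 (exon 5 of its longest transcript, 49 of 140 bases covered by *Gm15690*) and chr5:120480807-120480898 (exon 6, all 92 bases covered).
Sds exon 5: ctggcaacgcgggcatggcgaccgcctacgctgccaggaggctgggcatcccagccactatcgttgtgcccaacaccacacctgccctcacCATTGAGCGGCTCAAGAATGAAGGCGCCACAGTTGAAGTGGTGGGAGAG
Sds exon 6: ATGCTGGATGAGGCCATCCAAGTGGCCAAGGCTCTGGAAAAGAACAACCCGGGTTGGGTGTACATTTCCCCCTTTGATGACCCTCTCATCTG

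The *Slc1a2* exons lie at chr2:102737777-102737929 (exon 3 of its longest transcript, 23 of 153 bases covered by *Gm13872*) and chr2:102743808-102743973 (exon 5, all 166 bases covered).
Slc1a2 exon 3: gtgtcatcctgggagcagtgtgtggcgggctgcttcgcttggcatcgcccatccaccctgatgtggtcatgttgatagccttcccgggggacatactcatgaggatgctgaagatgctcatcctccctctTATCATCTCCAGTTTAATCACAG
Slc1a2 exon 5: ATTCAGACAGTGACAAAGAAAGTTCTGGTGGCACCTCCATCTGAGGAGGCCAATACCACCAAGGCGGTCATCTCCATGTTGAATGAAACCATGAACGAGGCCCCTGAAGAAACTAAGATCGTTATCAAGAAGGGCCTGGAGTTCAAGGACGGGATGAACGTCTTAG

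*Sds*, a serine dehydratase that turns serine into pyruvate for glucose production (ENSMUSG00000029597; chromosome 5, 120476526 to 120483932, plus strand), had a mean normalized count of 33.3. Its exons span 1694 bases, of which 501 bases (29.6%) were covered by exons on the minus strand, the largest share among the 10 genes. The antisense gene *Gm15690* lies wholly inside *Sds* (chromosome 5, 120479842 to 120480903) and has 432 exon bases, 141 of them shared with *Sds* as shown in the sequences above. *Gm15690* had a mean normalized count of 1960. Per kb of exon this was 4536 for *Gm15690* and 19.7 for *Sds*, a ratio of 231. *Plbd2*, a coding gene that meets *Sds* end to end (chromosome 5, 120483282 to 120503625), shared 360 bases with it, of which 203 are coding in *Sds*. *Plbd2* had a mean normalized count of 4389, or 663 per kb of exon, 33.7 times the *Sds* level per kb.

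*Slc1a2*, a glutamate transporter of pericentral hepatocytes and astrocytes (ENSMUSG00000005089; chromosome 2, 102658659 to 102790784, plus strand), had a mean normalized count of 26.0 over 13133 exon bases. That is 1.98 per kb, the lowest level per kb among the 10 genes. *Gm13872*, its antisense gene (chromosome 2, 102737907 to 102746760), reached 348 normalized counts on average over 1825 exon bases, or 191 per kb. The level per kb was 96.3 times as high for *Gm13872* as for *Slc1a2*, with 189 bases shared between their exons, all of them coding in *Slc1a2*.

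*Glul*, which encodes glutamine synthetase, the enzyme that fixes ammonia in the hepatocytes around the central vein (ENSMUSG00000026473; chromosome 1, 153899944 to 153909723, plus strand), had a mean normalized count of 62.3, or 18.7 per kb of exon. Its overlap with the opposite strand was a head-to-head one of 116 bases, all outside its coding sequence, with *Teddm2* (chromosome 1, 153849542 to 153900228). *Teddm2* had a mean normalized count of 755 and a level of 154 per kb, 8.21 times that of *Glul*. The microRNA gene *Mir8114*, on the same strand, shared 93 bases with *Glul* and had a mean normalized count of 0.773.

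*Gls2*, the liver glutaminase that releases ammonia from glutamine in periportal hepatocytes (ENSMUSG00000044005; chromosome 10, 128194457 to 128210004, plus strand), had a mean normalized count of 60.1, or 17.3 per kb. Its last exon overlapped *Spryd4* (chromosome 10, 128209908 to 128211807) tail to tail by 97 bases, none of them coding in *Gls2*. *Spryd4* had a mean normalized count of 235 and a level of 149 per kb, 8.59 times that of *Gls2*.

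**Figure D1:**
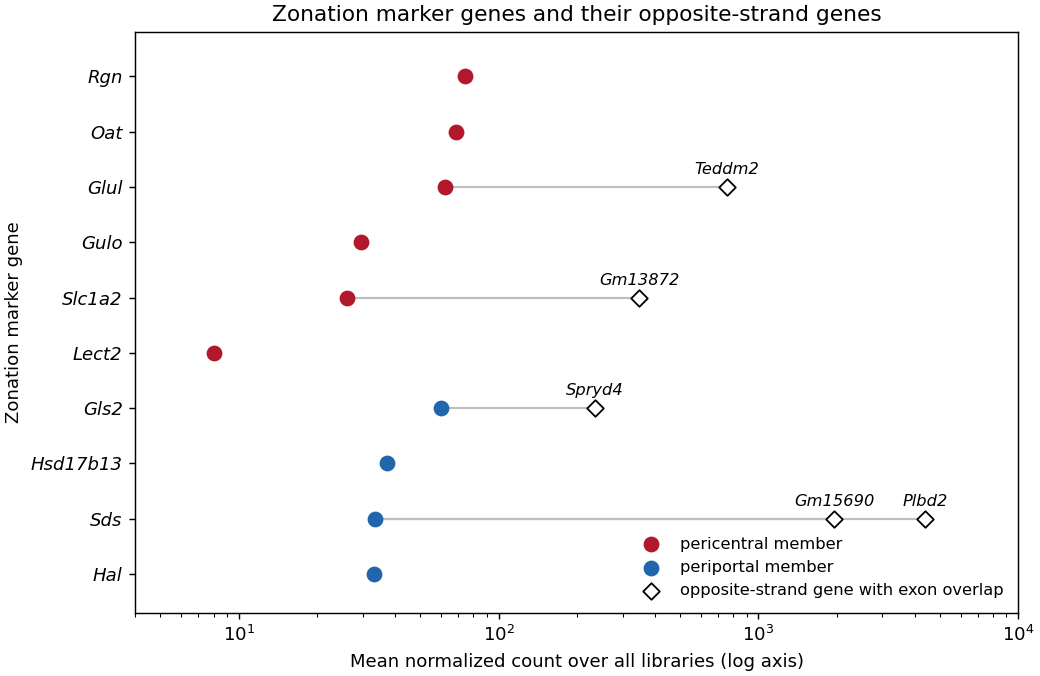
Mean normalized count over all libraries (log axis, not divided by gene length) of the 10 zonation genes, filled circles in red for pericentral and in blue for periportal genes, with open diamonds for genes whose exons overlap theirs on the opposite strand. The zonation genes sit between 8.04 and 74.3, and all 5 opposite-strand genes sit to the right of their partner, between 235 and 4389.

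The other 6 zonation genes had no exon overlap with a gene on the opposite strand. *Rgn*, which encodes regucalcin, a lactonase of ascorbate synthesis (ENSMUSG00000023070; chromosome X, 20549787 to 20562089, plus strand), had the highest mean normalized count of the 10 genes at 74.3, and the highest level per kb at 46.2. *Gulo*, the enzyme of the last step of ascorbate synthesis in mice (ENSMUSG00000034450; chromosome 14, 65986786 to 66009207, minus strand), was lower at 29.6 normalized counts on average and a level of 13.1 per kb. Both genes of this pathway are annotated with 1 transcript each.

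*Oat*, ornithine aminotransferase, which links ornithine to glutamate (ENSMUSG00000030934; chromosome 7, 132557478 to 132576398, minus strand), had a mean normalized count of 68.4 and a level of 29.0 per kb, second to *Rgn* on both scales. It lies inside the annotated span of *Fgfr2* on the same strand, with 0 exon bases in common, and *Fgfr2* had a mean normalized count of 4.15. *Lect2*, a protein that hepatocytes secrete into blood (ENSMUSG00000021539; chromosome 13, 56542464 to 56548502, minus strand), had the lowest mean normalized count at 8.04. With only 919 exon bases, its level per kb was 8.75, above those of *Hal* and *Slc1a2*.

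*Hal*, histidine ammonia-lyase, which begins histidine breakdown (ENSMUSG00000020017; chromosome 10, 93488768 to 93519304, plus strand), had a mean normalized count of 33.3, within rounding the same as that of *Sds*. Its 5549 exon bases brought the level per kb to 5.99. *Hsd17b13*, an enzyme of the lipid droplet surface (ENSMUSG00000034528; chromosome 5, 103955440 to 103977410, minus strand), had a mean normalized count of 37.3 and a level of 17.3 per kb, within rounding that of *Gls2*.

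Ordered by level per kb of exon, the 10 genes ran *Rgn*, *Oat*, *Sds*, *Glul*, *Gls2*, *Hsd17b13*, *Gulo*, *Lect2*, *Hal* and *Slc1a2*. The 4 genes from *Sds* to *Hsd17b13* lay between 17.3 and 19.7 per kb and include 3 periportal genes and 1 pericentral gene. The pericentral genes held both ends of the order, from 1.98 to 46.2 per kb with a median of 15.9, and the periportal genes lay within that range, from 5.99 to 19.7 with a median of 17.3. The pericentral median was 1.30 times the periportal one for the mean normalized count and 0.92 times per kb, so that the order of the zones turned with the scale.

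All 10 genes lay in the upper part of the table. By mean normalized count they ranked between place 1234 (*Rgn*) and place 4984 (*Lect2*) of 21880, and a median of 90.7% of genes lay below them. Coding genes without exon overlap on the opposite strand, 9895 in number, had a median mean normalized count of 1.59, and genes that overlap an opposite-strand coding gene in any of its exons, UTRs included, 4804 in number, whether coding or not, had one of 11.2. Per kb of exon these medians were 0.369 and 4.25, so that the ratio between the classes was 11.5 on that scale and 7.0 by mean normalized count. The 10 zonation genes together held 0.048% of the sum of all mean normalized counts. *Alb*, the gene of serum albumin, had the highest mean among the coding genes without such overlap, at 4958, while the highest of the genes that overlap an opposite-strand coding gene reached 40709.

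**Figure D2:**
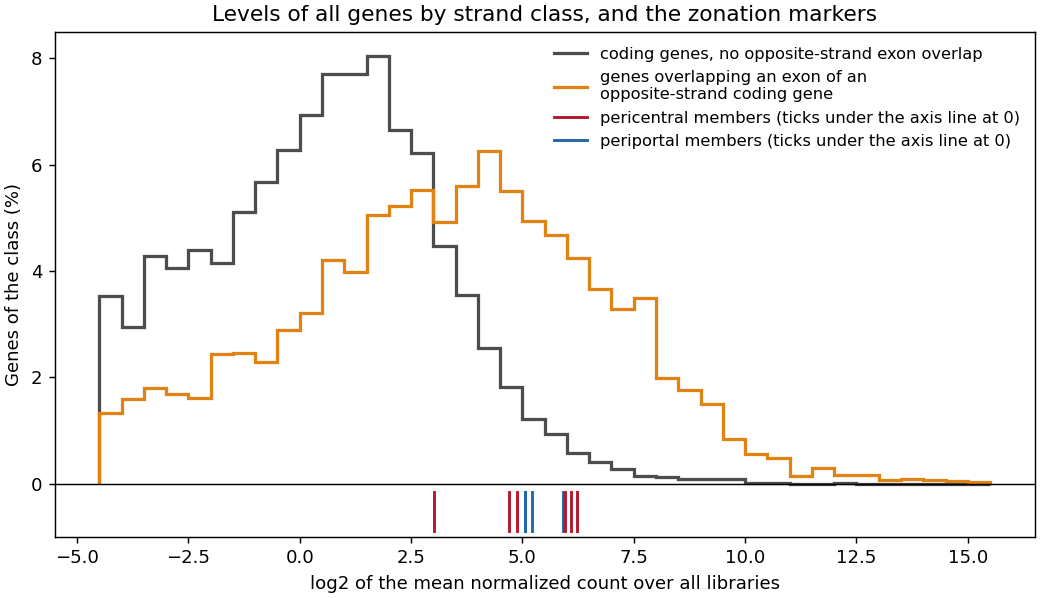
Distribution of log2 mean normalized counts, as percent of the genes in each class, for coding genes with no opposite-strand exon overlap (gray) and genes that overlap an exon of an opposite-strand coding gene (orange), with ticks below the 0 line for the 10 zonation genes. The orange distribution lies to the right of the gray one (medians 11.2 and 1.59 before the logarithm), and the zonation genes fall in the right-hand part of the gray one.

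Other zonation markers were described from lists that include Wnt target genes for the pericentral zone and enzymes of urea and glucose production for the periportal zone. All 12 of the other pericentral genes were in the table, with a median level of 0.494 per kb of exon. They split into the cytochrome *Cyp2e1*, at 311 per kb, the cytochromes *Cyp1a2* (23.5) and *Cyp27a1* (17.3), and 9 genes at 2.04 or less. Among those 9 were the Wnt target and receptor genes *Axin2* (0.296), *Lgr5* (0.0486) and *Rnf43* (0.631). The pericentral zonation genes other than *Slc1a2* lay above all 9. The 12 other periportal genes had a median of 53.6 per kb with *Ctsc* lowest at 1.16, and the 4 periportal zonation genes lay below that median. *Cps1*, the first enzyme of the urea cycle, was at 65.1 per kb.

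The tissue label was read against markers of the liver's cell types on the same scale, with the same limit on strand. Hepatocyte markers, 7 of 8 in the table, had a median of 174 per kb of exon, from 55.7 for *Apob* to 2117 for *Alb*. Markers of Kupffer cells and macrophages (6 of 6 in the table) had a median of 1.25 per kb, endothelial markers (5 of 5) one of 0.340, stellate cell markers (6 of 6) one of 0.156 and cholangiocyte markers (4 of 4) one of 0.0644. All 4 cholangiocyte markers had a mean normalized count under 1. The median listed for the 10 zonation genes, 17.3 per kb, lay below that of the hepatocyte markers and above those of the other cell types. Of the 21 markers of those other cell types, 1 reached the range of the zonation genes, *Csf1r* at 21.0 per kb.

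**Figure D3:**
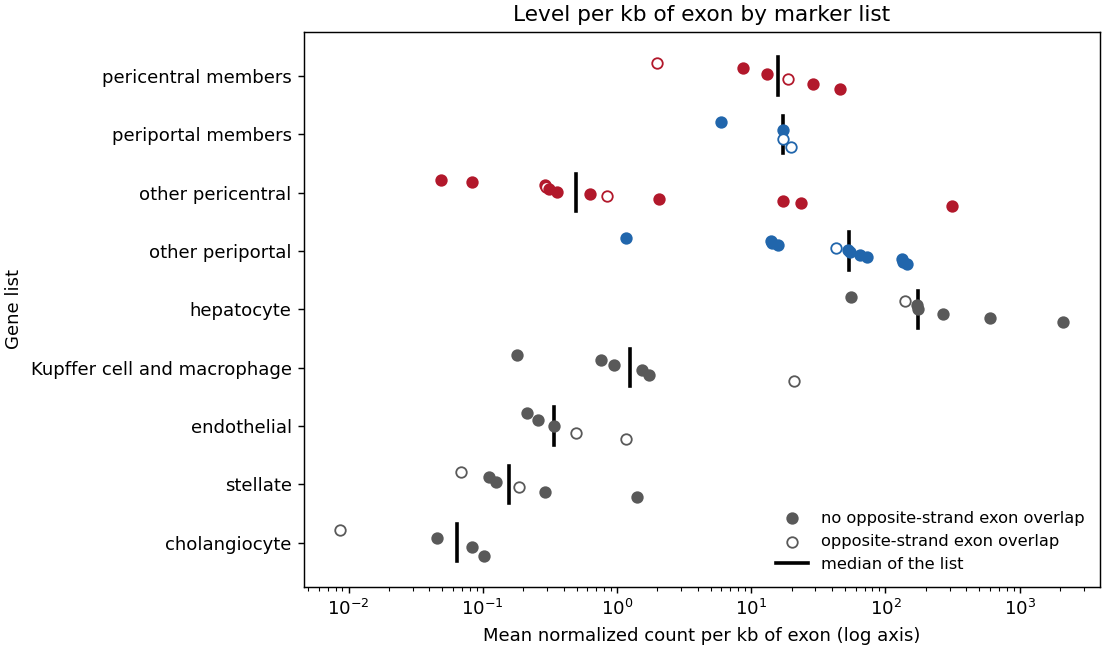
Mean normalized count per kb of exon (log axis) of each gene in 9 lists, with 1 point a gene, open points for genes with exon overlap on the opposite strand and black bars for list medians. The medians of the zonation genes (15.9 and 17.3) sit between those of the hepatocyte list (174) and of the 4 other cell types (0.0644 to 1.25).

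Over all 9 lists, 12 genes had an opposite-strand gene with exon overlap that the table holds, 4 of them the zonation genes above. Among the 8 others the opposite-strand gene was the higher per kb in 7, beside the 68.2% of all coding genes with such a partner, and the exception was the macrophage marker *Csf1r*. *Cyp2f2*, a periportal cytochrome, was at 42.9 per kb and its antisense gene *Gm15883* at 4623. *Tbx3*, a pericentral transcription factor, was at 0.836 per kb and *Tbx3os1* at 9.24. How many of the reads behind a zonation gene's value came from its own strand was not tested, since the table holds 1 value a gene.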

How the data were processed

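RNA of 32 livers was sequenced by the authors from strand-specific poly(A) libraries (NEBNext Ultra II Directional) as single-end reads. The authors mapped the reads with HISAT2 2.1.0.13 to GRCm38, counted them on genes with HTSeq and ran DESeq2, per the labels and the methods. The authors deposited 1 signal value a gene, the mean normalized count, that is, counts divided by DESeq2 size factors and averaged over libraries, which the table repeats for each of 6 comparisons. The other 5 columns of each comparison hold the authors' log2 fold changes, standard errors, Wald statistics, *P* values and adjusted *P* values, and none was used. No test could therefore be run in place of the planned comparison of genotypes by counts per library.

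Positions, exons and sequences were read from the GENCODE M21 annotation of GRCm38, which held 21833 of the 21880 identifiers and lacked 47. The authors name GRCm38.90 as their reference, which is another release, and whether its gene models give other exon lengths or overlaps was not tested. Exons of all transcripts of a gene were merged for its length. An opposite-strand gene was one with at least 1 exon base in common. Calculations used Python 3.11.15 with pandas 2.3.3 and numpy 2.4.6, and the overlap code was checked on artificial gene models with known overlaps. Named were the 10 zonation genes, the genes overlapping them, and the highest and lowest of each list, apart from items not reported here, and any further gene was picked with its value in view. The zonation genes and lists were chosen with earlier results of these data known. Alternatives were an overlap of 100 bases, coding partners only, gene bodies, other sets of genes for ranks, the longest transcript for length and, added after seeing the data, partners and gene classes compared per kb and classes of coding genes alone.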

Additional observations from a re-analysis of the deposited data

How the results depend on the processing

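No paired analysis was possible because the table holds no value of a single library, and for the same reason the planned edgeR test and its alternatives (size factors, no low-count filter, leaving out a replicate) were not run. Precision cannot be stated, as a mean over all libraries shows neither the depth of each library nor the spread between mice. The number of zonation genes with an opposite-strand exon overlap was 4 with at least 1 shared base and with whole gene bodies, and 3 with at least 100 bases (without *Gls2*) or with coding partners only (without *Slc1a2*). The opposite-strand gene was higher in 4 of 4 by mean normalized count and per kb, against 63.4% and 68.2% of coding genes with such a partner. The median share of genes below the zonation genes, 90.7%, was 91.3% among coding genes and 83.7% once genes with means under 1 were dropped. The ratio of the pericentral to the periportal median went from 1.30 to 0.92 per kb. The ratio of medians of genes that overlap an opposite-strand coding gene to coding genes without overlap was 7.0 over all genes and 4.83 once means under 1 were dropped, and, added after seeing the data, 11.5 per kb and 7.59 with coding genes in both classes. With the longest transcript as length, levels per kb were 1 to 1.35 times those with merged exons, and *Gls2* and *Glul* exchanged places in the order.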

Other observations

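Some genes that border the zonation genes without overlapping them, chosen after their values were seen, add to the picture of these loci. *Amdhd1*, which acts later in histidine breakdown, lies 4033 bases beyond the 3′ end of *Hal* on the opposite strand and had a mean normalized count of 14.6, against 33.3 for *Hal*. *Fbxl21* lies 4565 bases from *Lect2* on the opposite strand and had a mean normalized count of 65.7, against 8.04 for *Lect2*. *Sdsl*, a paralog of *Sds*, lies 3715 bases from it on the opposite strand and had a mean normalized count of 0.744.

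*Csf1r*, the receptor that macrophages need for survival, stood apart from the other macrophage markers at a mean normalized count of 121, while the other 5 of the list lay between 0.586 and 3.82. Among the listed markers with a partner in the table, it was the only one whose opposite-strand partner was lower: *Hmgxb3*, a coding gene overlapping it, had a mean normalized count of 3.88. Which strand the reads counted for *Csf1r* came from was not tested. Among the endothelial markers, *Clec4g* was at 2.88 and its antisense gene *Gm16553* at 122, and *Stab2* was at 4.36 and *Gm16268* at 29.1. *Serpina1c*, a hepatocyte protease inhibitor of a multigene family, was at 189 (how reads shared with its copies were counted was not tested), and *B430119L08Rik* on the opposite strand was at 29587.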
